A study of Mus musculus with 159 samples.

Results

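The genes described here make cholesterol, sense sterol or move it between compartments. The list held 28 genes, chosen by name but with earlier results of these data known. Their probes were found by matching current and older gene symbols to the array's annotation. Of the 28 genes, 24 had at least 1 probe, with 32 probes in all, out of 9704 genes and 13983 probes with values. Mvk, Fdft1, Acat2 and Ggps1 had no probe in the table and were not analysed here.

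RNA of prefrontal cortex (PFC) and liver from female C57BL/6J mice, an inbred strain that drinks ethanol readily, was measured on Illumina MouseRef-8 bead arrays, with 1 mouse per array and 159 arrays in all. The groups were Chronic, in which 20% ethanol and water were always on offer, and its water controls; Chronic Intermittent (CI), with ethanol every other day, and its water controls; Drinking in the Dark (DID), with ethanol for a few hours of the dark phase, and its water controls; and 2 injections of lipopolysaccharide (LPS) at 1 mg/kg, taken a week after the last injection, and its saline controls. Each group had 10 mice in each tissue, except for 9 controls in Chronic PFC, where the authors removed 1 array. The mice carried no engineered allele, were adult, and were housed singly before treatment. The labels give 2.5 months for all, while the methods give a younger starting age for DID and LPS mice than for Chronic and CI mice. The treatments also differed in length, with CI the longest. Ethanol mice were killed about a day after their last access. DID mice, on a reversed light cycle, were in the dark phase at that time, and mice of the other treatments in the light phase. For the LPS controls the labels name water and the methods saline injections, and saline was taken as correct. Values are log2 intensities, and a change is the treated mean less the control mean on that scale.

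Liver cells make cholesterol from acetyl-CoA through mevalonate, isoprenoid units, squalene and a chain of sterol ring intermediates. The genes of this route are switched on together by SREBP-2, encoded by Srebf2, which the escort protein Scap carries to the Golgi when membrane sterol is low and which the Insig proteins hold back when sterol is plentiful. Abcg5 and Abcg8 form a transporter that pumps sterol into bile, Stard4 carries cholesterol between membranes, Tmem97 is a sterol-responsive membrane protein, and Lbr is a nuclear membrane protein that also reduces a sterol ring bond.

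Promoter sequences are shown for 4 enzymes whose liver level was lower in CI mice at an unadjusted p under 0.05 and for the Abcg5 and Abcg8 pair, since these are the genes the liver results turn on. Each is 1 window from 250 bases before to 50 after the start site, 5′ to 3′ on the gene's strand, from RefSeq (GRCm38.p6). Capitals mark CCAAT on either strand (ATTGG when read backwards), the box bound by NF-Y, and TCACNCCAC, 1 form of the sterol regulatory element.
Hmgcs1 (chr13:119690101-119690400, plus strand): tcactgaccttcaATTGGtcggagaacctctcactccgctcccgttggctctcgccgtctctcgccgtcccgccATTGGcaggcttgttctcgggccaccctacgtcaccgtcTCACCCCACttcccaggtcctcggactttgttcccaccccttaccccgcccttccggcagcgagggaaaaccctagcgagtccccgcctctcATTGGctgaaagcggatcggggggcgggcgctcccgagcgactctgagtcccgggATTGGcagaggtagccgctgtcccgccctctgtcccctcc
Idi1 (chr13:8885356-8885655, plus strand): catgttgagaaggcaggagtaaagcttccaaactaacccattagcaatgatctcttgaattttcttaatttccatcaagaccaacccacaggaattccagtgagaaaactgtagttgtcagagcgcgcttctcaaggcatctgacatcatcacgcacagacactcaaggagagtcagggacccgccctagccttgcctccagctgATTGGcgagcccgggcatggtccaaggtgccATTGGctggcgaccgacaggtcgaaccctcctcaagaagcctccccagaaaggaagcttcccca
Msmo1 (chr8:64733529-64733828, minus strand): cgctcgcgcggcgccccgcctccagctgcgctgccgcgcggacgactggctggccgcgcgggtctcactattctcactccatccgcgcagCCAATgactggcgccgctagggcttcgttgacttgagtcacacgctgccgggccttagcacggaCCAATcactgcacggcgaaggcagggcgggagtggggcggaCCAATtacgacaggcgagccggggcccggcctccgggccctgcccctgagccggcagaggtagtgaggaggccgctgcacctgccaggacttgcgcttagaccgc
Hsd17b7 (chr1:169969156-169969455, minus strand): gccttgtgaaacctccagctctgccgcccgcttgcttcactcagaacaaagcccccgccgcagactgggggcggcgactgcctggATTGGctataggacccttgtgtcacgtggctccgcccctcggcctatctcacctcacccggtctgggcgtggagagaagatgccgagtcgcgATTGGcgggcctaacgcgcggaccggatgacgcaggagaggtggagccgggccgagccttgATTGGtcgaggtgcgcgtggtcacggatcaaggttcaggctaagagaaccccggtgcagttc
Abcg5 (chr17:84682962-84683261, minus strand): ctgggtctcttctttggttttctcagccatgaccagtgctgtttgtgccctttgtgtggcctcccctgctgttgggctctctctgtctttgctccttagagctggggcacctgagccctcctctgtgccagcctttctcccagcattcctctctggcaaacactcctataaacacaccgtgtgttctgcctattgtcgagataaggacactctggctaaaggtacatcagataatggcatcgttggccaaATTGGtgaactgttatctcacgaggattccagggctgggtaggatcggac
Abcg8 (chr17:84682871-84683170, plus strand): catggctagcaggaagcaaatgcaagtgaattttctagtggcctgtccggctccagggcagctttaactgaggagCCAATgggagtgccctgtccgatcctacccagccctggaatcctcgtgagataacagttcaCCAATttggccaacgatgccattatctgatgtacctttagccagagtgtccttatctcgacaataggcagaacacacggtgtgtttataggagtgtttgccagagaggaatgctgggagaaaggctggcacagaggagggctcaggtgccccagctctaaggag

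The Hmgcs1 window held 4 CCAAT boxes and 1 TCACNCCAC, those of Msmo1 and Hsd17b7 held 3 CCAAT boxes each, and that of Idi1 held 2. Abcg5 and Abcg8 lie head to head on chromosome 17, with start sites 110 bases apart, so that their windows share 209 bases read from opposite strands. The Abcg5 window held 1 CCAAT box and the Abcg8 window 2, and the Abcg5 box is 1 of those 2, read from the other strand. Windows were found for 24 of the 28 genes, Fdft1, Fdps, Sqle and Stard4 being absent from the table. CCAAT stood in 22 of these 24 (91.7%), against 41.1% of 27025 genes, and 14 of the 24 had at least 2 copies, against 13.3% of genes. GGGCGG, the Sp1 box, stood in 20 (83.3%), against 38.2%, and CACGTG, an E-box, in 5 (20.8%), against 8.09%. TCACNCCAC was found in Hmgcs1 only (4.17% of the 24 genes, against 1.44%), and the classical sterol regulatory element of 10 letters in none of the 24, against 0.0999% of genes. All 5 motifs were searched on both strands, and a match is a run of letters, not a bound site.

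All 24 genes with a probe had values in each of the 4 liver sets. In PFC, 22 had values in Chronic and 21 in the other sets, where Idi1 was not held, and Abcg5 and Abcg8 were held in no PFC set. The sets were pre-processed apart, so their levels are only set side by side and were not tested. The median gene of the list lay at the 76.2 to 81.5 percentile of all probes in the 4 liver sets and at the 48.4 to 55.5 percentile in PFC. Hmgcs1, which makes HMG-CoA, was among the brightest probes in both tissues, with control medians of 13.52 to 14.92 in liver and 13.65 to 14.00 in PFC. Lss, which closes the sterol rings, had control medians of 9.44 to 10.79 in liver and 8.23 to 8.70 in PFC. Srebf2 was among the dimmer genes, with control medians of 8.43 to 9.20 in liver and 8.80 to 9.34 in PFC. Probes differ in how brightly they bind, so these levels do not rank the genes by transcript number.

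The mean correlation of 1 array with the rest of the same set was 0.975 to 0.992 in liver. In PFC it was as low as 0.946, in 2 water controls of the CI set. The hepatocyte markers were at the top of the range in every liver set, at a median percentile of 99.7 to 99.9, and 0 of 7 passed an unadjusted p under 0.05 in any of the 4. Probes this bright have little room to move, so they cannot settle whether the share of hepatocytes changed. In bulk tissue, fewer cells of a type and less RNA per cell cannot be told apart. The p-values measure the spread between single mice.

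In CI liver, 22 of the 24 genes were lower in ethanol than in water mice, among them all 16 measured enzymes. By the study's threshold for differentially expressed (DE) transcripts, an unadjusted limma p under 0.05, 15 genes were lower and 2 were higher, where 5.24% of all 9561 probes were lower and 5.23% higher. As the list was chosen with earlier results of these data known, this contrast is no independent test. The median change over the 24 genes was -0.24 and over the enzymes -0.39, against 0.00019 over all probes. None of the 24 passed the Benjamini-Hochberg test over all probes, which 0.23% of probes passed, and the smallest adjusted p was 0.124 (limma). Leaving out 1 array at a time gave 13 to 19 genes with an unadjusted p under 0.05, and the share of all probes in those fits is not given here.

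Of the 3 measured enzymes that make and use mevalonate, Hmgcs1 and Mvd had an unadjusted p under 0.05. Hmgcs1 was 13.49, 13.90 and 15.16 (lowest, median, highest) in CI ethanol livers and 14.21, 14.56 and 15.22 in water livers. The ethanol median lay below the whole water range, 9 of 10 ethanol livers were below the water mean, and the ranges met at their upper ends. Its change was -0.64 (SE 0.19, a ratio of 0.643), with an unadjusted limma p of 0.00351 and an adjusted p of 0.172. Mvd, which makes isopentenyl pyrophosphate, was at -0.48 (adjusted limma p = 0.195). Pmvk, the kinase before it, was at -0.22 (unadjusted limma p = 0.109).

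The 3 measured enzymes of the isoprenoid and squalene steps all had an unadjusted p under 0.05. Idi1, the isopentenyl pyrophosphate isomerase, was 8.30, 8.54 and 9.02 in ethanol livers and 8.71, 8.89 and 9.49 in water livers. Again 9 of 10 ethanol livers were under the water mean, by -0.38 on average (SE 0.11, adjusted limma p = 0.124), the smallest adjusted p of the list. Fdps, which joins isoprenoid units into farnesyl pyrophosphate, was at -0.54 (SE 0.22, adjusted limma p = 0.344). Sqle, which adds oxygen to squalene, had the lowest value of the list at -0.70 (SE 0.23, a ratio of 0.616, adjusted limma p = 0.206). It was 9.26, 10.03 and 11.34 in ethanol livers and 10.24, 10.82 and 11.49 in water livers, so that the ethanol median was again below the lowest water liver while the highest livers of both groups were alike. A second Sqle probe was at -0.48 (SE 0.13).

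Of the 10 measured enzymes that work on the sterol rings, 7 had an unadjusted p under 0.05. Msmo1, a methyl sterol oxidase, was 11.13, 11.89 and 12.94 in ethanol livers and 12.14, 12.36 and 13.15 in water livers. The ethanol median lay below the lowest water liver and 9 of 10 ethanol livers under the water mean, with a change of -0.65 (SE 0.19, adjusted limma p = 0.154). Hsd17b7, which reduces a ring ketone, was 10.70, 11.05 and 11.78 in ethanol livers and 11.09, 11.61 and 12.09 in water livers, with a change of -0.45 (SE 0.13, adjusted limma p = 0.148). The other 5 with an unadjusted p under 0.05 were Cyp51 at -0.52, Lss at -0.39, Nsdhl at -0.37, Dhcr7 at -0.37 and Sc5d at -0.18. Cyp51 and Nsdhl take methyl carbons off the ring, and Sc5d and Dhcr7 act close to the end of the route. Nsdhl had 4 probes and was read from another probe in CI than in the other liver sets. Its probe with values in all 3 drinking tests was at -0.06 when those tests were fitted together (unadjusted limma p = 0.168). Ebp (-0.16), Tm7sf2 (-0.12) and Lbr (-0.06) did not reach that threshold.

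**Figure D1:**
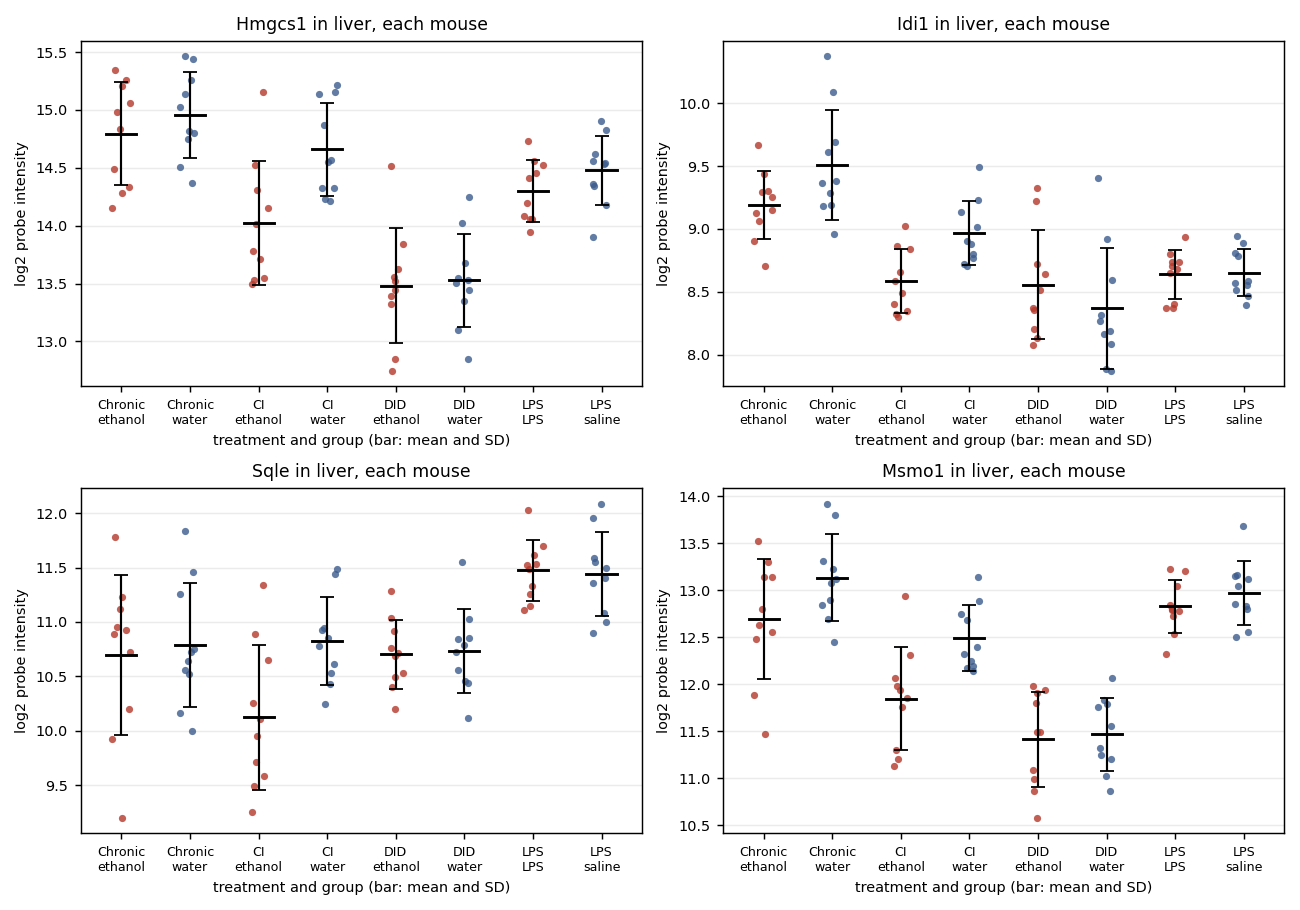
Log2 intensity of Hmgcs1, Idi1, Sqle and Msmo1 in each liver, with treated mice left of their controls in each of the 4 treatments; bars are the mean and SD. In CI the 10 ethanol livers sit lower than the 10 water livers, with medians of 13.90 and 14.56 for Hmgcs1, and the ranges overlap in every panel.

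Among the genes of sterol control in CI liver, Srebf2 was 8.17, 8.30 and 8.57 in ethanol livers and 8.30, 8.43 and 8.78 in water livers. Its change was -0.14 (SE 0.06, unadjusted limma p = 0.0347) and that of Scap was -0.15 (unadjusted limma p = 0.016). Insig2 was 9.81, 10.81 and 11.21 in ethanol livers and 10.54, 10.91 and 11.74 in water livers, the lowest change of the 4 control genes at -0.26 (SE 0.17, unadjusted limma p = 0.145). Insig1, itself a target of SREBP-2, was 10.01, 10.09 and 10.26 in ethanol livers and 9.90, 10.25 and 10.61 in water livers, a change of -0.12 (unadjusted limma p = 0.0771). Stard4 was at -0.13 (unadjusted limma p = 0.0341) and Tmem97 at -0.05. The sterol exporters ran the other way. Abcg5 was 11.93, 12.40 and 12.83 in ethanol livers and 11.45, 12.10 and 12.31 in water livers, a change of 0.36 (SE 0.11, adjusted limma p = 0.158). Abcg8 was 11.02, 11.41 and 11.83 in ethanol livers and 10.56, 11.04 and 11.28 in water livers, a change of 0.36 (SE 0.10, adjusted limma p = 0.131). All 10 ethanol livers lay above the water mean for Abcg8, and 9 of 10 did for Abcg5.

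The mean level of the 16 enzymes in a mouse was 9.89, 10.16 and 10.93 in CI ethanol livers and 10.26, 10.52 and 11.01 in water livers, and 8 of 10 ethanol livers lay below the water median. Circadian clock genes moved in the same livers: 5 of 9 measured were higher at an unadjusted p under 0.05, and Usp2 (0.92, adjusted limma p = 0.0105) and Ciart (0.48, adjusted limma p = 0.0479) rose. The mean level over part of the clock list, without its brightest gene Dbp, was 8.86 to 9.20 in ethanol livers and 8.64 to 8.98 in water livers. The part of the clock genes in the enzyme values was not tested. The mean level of the hepatocyte markers was 14.41 to 14.55 in ethanol livers and 14.40 to 14.57 in water livers.

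**Figure D2:**
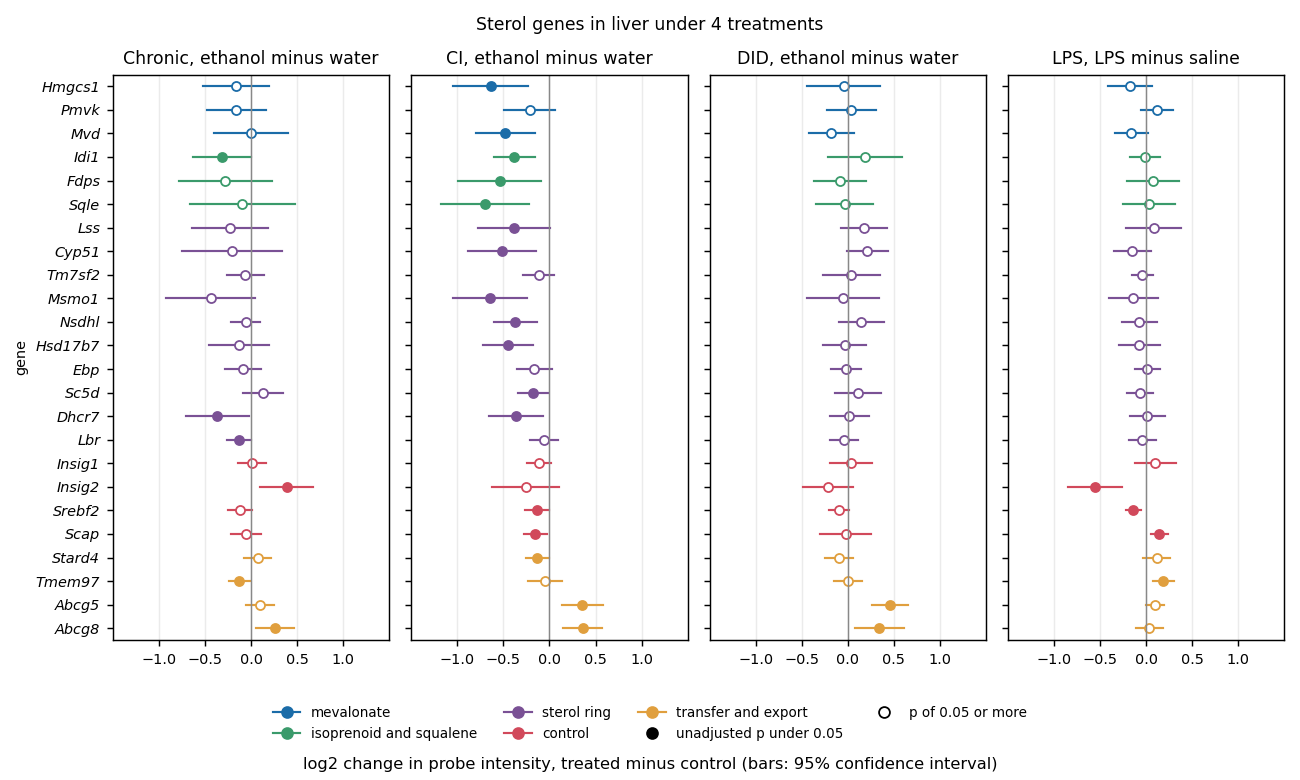
Change in log2 intensity (treated less control, with 95% interval) of the 24 genes in liver for the 4 treatments; filled points have an unadjusted p under 0.05. The CI panel has 15 filled points below 0 and 2 above it, Abcg5 and Abcg8.

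The enzymes also varied together among mice of the same group. With group means removed, the 120 pairs of enzymes had a median Pearson r of 0.75 over the 20 CI livers, and 83.3% of pairs were over 0.5, against 2.86% of pairs of all probes. The 16 enzymes are thus not 16 separate observations of a mouse. Mvd (0.97), Lss (0.96), Fdps (0.96) and Sqle (0.92) followed the mean of the other enzymes most closely, while Lbr had an r of 0.43. Outside the enzymes, Srebf2 had an r of 0.69 with their mean, Insig1 0.33 and Insig2 -0.14. Abcg5 (0.07) and Abcg8 (0.01) had an r near 0 with the enzymes among CI mice and of 0.85 with each other. The mice of a set were normalized together, and no p is given.

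**Figure D3:**
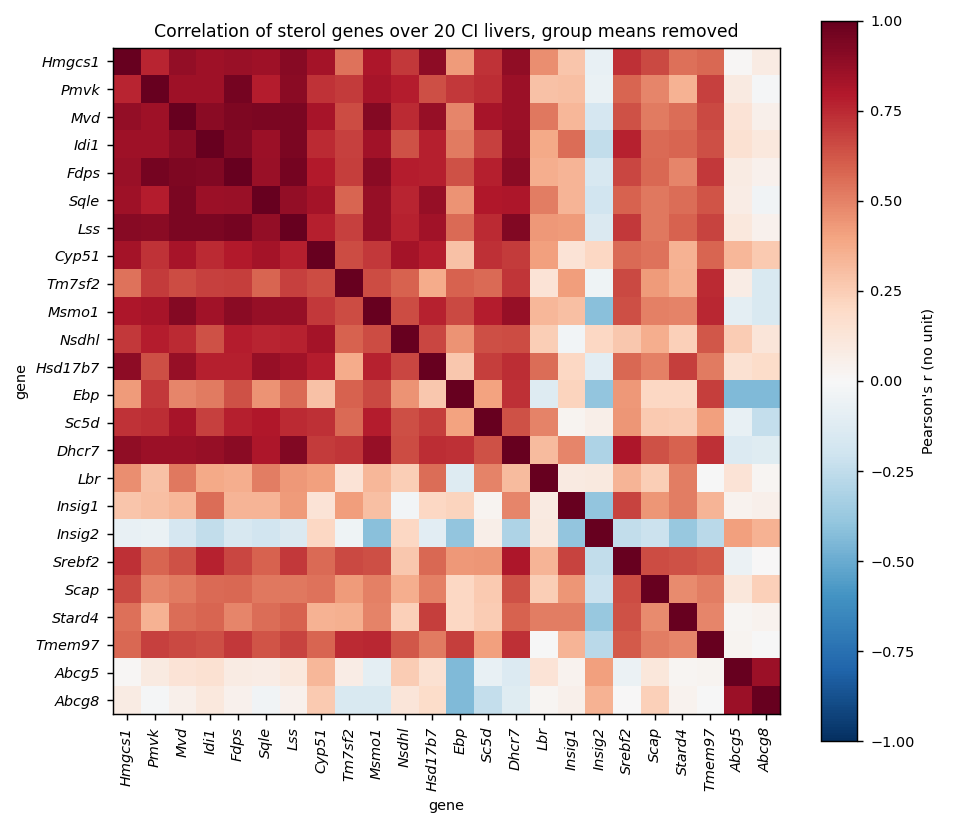
Pearson r between genes of the list over the 20 CI livers after group means were removed, as a colour scale from -1 to 1. The enzymes form 1 block of high r, with a median of 0.75 over 120 pairs, and Abcg5 and Abcg8 form a pair of their own at 0.85.

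The enzymes also varied together in the other livers, and less so in PFC by the same measure. The median r of enzyme pairs was 0.76 in Chronic, 0.38 in DID and 0.47 in LPS liver, each over 20 mice, and 0.05 in Chronic (19 mice), 0.23 in CI, 0.10 in DID and 0.01 in LPS PFC. Sqle had an r with the mean of the other enzymes of 0.96 in Chronic, 0.46 in DID and 0.90 in LPS liver. Lbr stood at -0.47, -0.05 and -0.14 in those 3 sets, and some others were also low: Nsdhl at 0.08 in DID, and Ebp at -0.29 and Tm7sf2 near 0 in LPS. The exporters ran against the enzyme mean in Chronic (Abcg8 -0.58, Abcg5 -0.37) and DID (-0.33 each), but not in LPS liver (Abcg8 0.12, Abcg5 -0.01). Their r with each other was 0.69 in Chronic, 0.78 in DID and 0.14 in LPS liver. The enzymes were also among the more variable probes within a group, with a median SD of 0.383, 0.328, 0.284 and 0.217 in Chronic, CI, DID and LPS liver, against 0.108, 0.0953, 0.124 and 0.101 over all probes. In PFC their SD was ordinary, at a median percentile of 45.6 to 62.8.

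In Chronic liver, 18 of the 24 genes were lower in ethanol than in water mice, and 15 of the 16 enzymes were. Only 4 were lower and 2 higher at an unadjusted p under 0.05, against 5.8% and 6.31% of all probes, and none passed the adjusted test, which 1.5% of probes passed. With array weights the count was 3 genes in place of 6, and the share of all probes in that fit is not given here. In these livers 2 of 9 clock genes were higher and 2 lower at an unadjusted p under 0.05, and 2 of 4 sinusoidal endothelial markers were higher (mean level 10.77 to 11.04 in ethanol and 10.63 to 11.01 in water livers), and their part in the values was not tested. Insig2, which holds the SREBP-2 precursor in the endoplasmic reticulum, had the smallest p. It was 10.35, 10.70 and 11.53 in ethanol livers and 10.02, 10.38 and 10.99 in water livers, with 9 of 10 ethanol livers above the water mean. The change was 0.39 (SE 0.14, adjusted limma p = 0.189), and a second probe gave 0.22 (SE 0.12). Abcg8 was 12.20, 12.43 and 12.96 in ethanol livers and 11.85, 12.27 and 12.57 in water livers, a change of 0.26 (SE 0.10, adjusted limma p = 0.233). Its partner Abcg5 was 12.69, 13.04 and 13.31 in ethanol livers and 12.66, 12.91 and 13.15 in water livers, a change of 0.10 (SE 0.07).

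Among the Chronic enzymes, Dhcr7, which makes cholesterol in the last step, was 8.90, 9.80 and 10.20 in ethanol livers and 9.62, 10.02 and 10.97 in water livers. Its change was -0.37 (SE 0.16, unadjusted limma p = 0.0338), with 9 of 10 ethanol livers below the water mean. Idi1 was 8.71, 9.20 and 9.67 in ethanol livers and 8.96, 9.37 and 10.37 in water livers, a change of -0.32 (SE 0.15, unadjusted limma p = 0.0438). Tmem97 was 11.36, 11.67 and 11.89 in ethanol livers and 11.53, 11.79 and 11.90 in water livers, a change of -0.13 (unadjusted limma p = 0.0293), and Lbr was also at -0.13 (unadjusted limma p = 0.0415). The enzymes furthest from 0 in CI were nearer to it here. Hmgcs1 was 14.15, 14.91 and 15.35 in ethanol livers and 14.37, 14.92 and 15.46 in water livers, a change of -0.16 (SE 0.17). Sqle was 9.20, 10.91 and 11.78 in ethanol livers and 10.00, 10.68 and 11.84 in water livers, a change of -0.10 (SE 0.27) whose sign turned when arrays were weighted. Msmo1 was at -0.44 (SE 0.23). Srebf2 was 8.93, 9.10 and 9.30 in ethanol livers and 9.00, 9.20 and 9.52 in water livers, and Insig1 had medians of 10.65 in ethanol and 10.64 in water livers.

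In DID liver the enzymes were evenly split, 8 higher and 8 lower in ethanol mice, with changes between -0.18 and 0.21 and none at an unadjusted p under 0.05. Abcg5 and Abcg8 were the only genes of the list at that threshold, both higher, where 2.99% of all probes were higher and 2.2% lower. Abcg5 was 11.19, 11.50 and 11.92 in ethanol livers and 10.83, 11.07 and 11.49 in water livers. All 10 ethanol livers lay above the water mean, although the ranges overlapped, and the change was 0.46 (SE 0.09, a ratio of 1.37). The unadjusted limma p was 8.92e-05 and the adjusted p 0.193, where 0.0224% of probes passed the adjusted test. After the data were seen, the DID livers were cut into 3 clusters by the correlation of their own values. The clusters held 5 ethanol and 5 water, 2 ethanol and 2 water, and 3 ethanol and 3 water mice. With the cluster as a term, the adjusted limma p of Abcg5 was 0.0112, and 5 genes of the list, in place of 2, had an unadjusted p under 0.05. More of all probes passed the adjusted test in that fit as well, and their share at the unadjusted threshold is not given here. The clusters come from the tested values, so that fit is no independent check. Abcg8 was 9.53, 9.84 and 10.54 in ethanol livers and 9.14, 9.55 and 9.88 in water livers, a change of 0.34 (SE 0.13, adjusted limma p = 0.681). In the same livers 1 of 8 clock genes was higher at an unadjusted p under 0.05 (Dbp, 0.44, adjusted limma p = 0.0949) and 1 lower, and 1 of 4 sinusoidal endothelial markers was higher. Their part in these values was not tested.

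Insig2 had the lowest change in DID liver. It was 10.40, 11.02 and 11.32 in ethanol livers and 10.75, 11.13 and 11.73 in water livers (-0.22, SE 0.13, unadjusted limma p = 0.106), with 9 of 10 ethanol livers below the water mean and the ranges overlapping. Cyp51 was 10.11, 10.55 and 10.85 in ethanol livers and 9.90, 10.37 and 10.66 in water livers (0.21, unadjusted limma p = 0.0607). Srebf2 was 8.25, 8.37 and 8.52 in ethanol livers and 8.29, 8.48 and 8.76 in water livers (-0.10, unadjusted limma p = 0.0637), with 1 water liver apart from the others at the top. Hmgcs1 was 12.75, 13.48 and 14.51 in ethanol livers and 12.84, 13.52 and 14.25 in water livers. The groups overlapped for each of these 3 genes, and 9 of 10 ethanol livers were below the water mean for Srebf2. Sqle had medians of 10.71 in ethanol and 10.76 in water livers, Idi1 of 8.44 in ethanol and 8.23 in water livers, and Insig1 of 10.21 in ethanol and 10.09 in water livers.

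**Figure D4:**
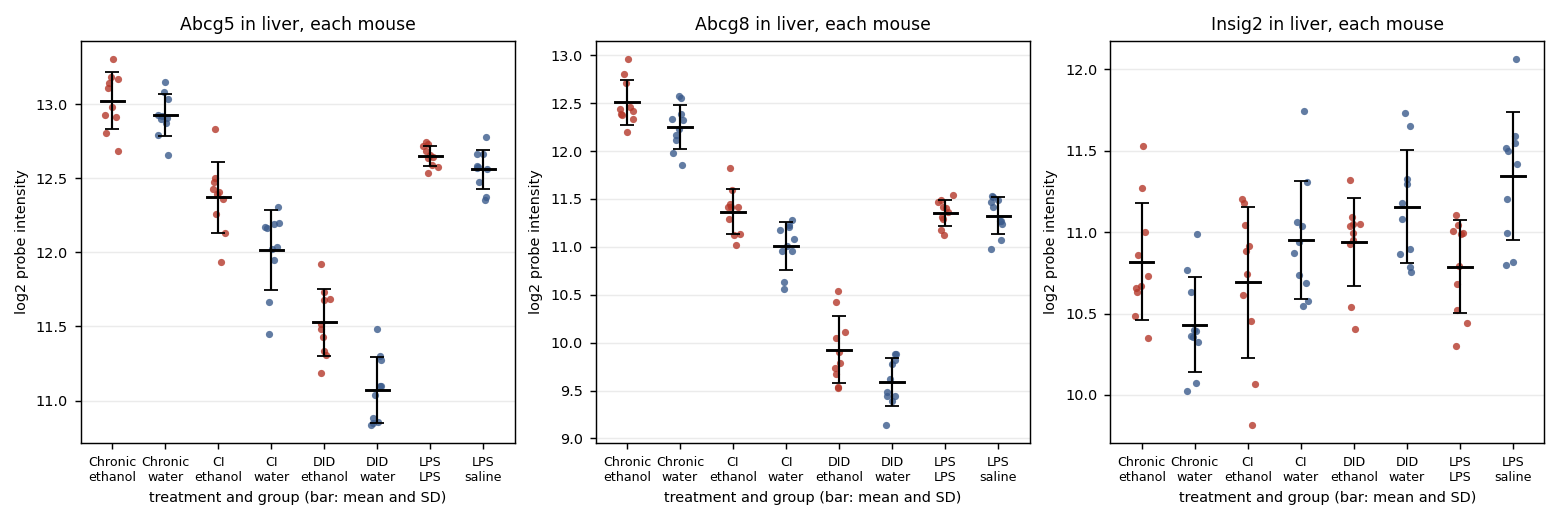
Log2 intensity of Abcg5, Abcg8 and Insig2 in each liver, with treated mice left of their controls in each of the 4 treatments; bars are the mean and SD. Abcg5 medians are 11.50 in DID ethanol and 11.07 in DID water livers, and Insig2 medians are 10.70 in Chronic ethanol and 10.38 in water livers, and 10.89 in LPS and 11.46 in saline livers.

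The 3 drinking tests were also fitted together, with the test as a term, over 30 ethanol and 30 water livers. Abcg5 rose by 0.30 (SE 0.06, a ratio of 1.23, adjusted limma p = 0.000972) and Abcg8 by 0.32 (SE 0.06, a ratio of 1.25, adjusted limma p = 0.00253). Srebf2 fell by 0.12 (SE 0.03, a ratio of 0.92, adjusted limma p = 0.0487), a call that was lost with any 1 of the 3 tests left out (adjusted limma p = 0.14 to 0.228). Without DID the adjusted p of Abcg5 was 0.0842, and without CI that of Abcg8 was 0.059. Over all probes 1.01% rose and 0.552% fell. Of the 24 genes, 21 were lower in ethanol livers, 8 of them at an unadjusted p under 0.05, where 5.69% of all probes were. Besides Srebf2 these were Msmo1 (-0.38), Fdps (-0.30), Sqle (-0.28), Hmgcs1 (-0.28), Dhcr7 (-0.24), Mvd (-0.22) and Hsd17b7 (-0.21), whose adjusted p lay between 0.119 and 0.42. In PFC none of 21 genes reached an unadjusted p under 0.05 over the 3 tests, where 4.84% of probes did, and 0 of 10977 probes passed the adjusted test.

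In LPS liver the enzymes did not stand apart from their controls, with 6 higher and 10 lower and none at an unadjusted p under 0.05. The genes at that threshold were 2 lower and 2 higher, a share near that of all probes (5.38% lower and 6.21% higher). Insig2 and Srebf2 were the lower ones, and Scap and Tmem97 the higher ones. Insig2 was 10.30, 10.89 and 11.11 in LPS livers and 10.80, 11.46 and 12.06 in saline livers. All 10 LPS livers were below the saline mean, and the ranges overlapped only at the saline low end. The change was -0.56 (SE 0.14, a ratio of 0.68), with an unadjusted limma p of 0.00059 and an adjusted p of 0.066, where 0.555% of probes passed the adjusted test. Its other probes were at -0.50 (SE 0.12) and -0.55 (SE 0.15).

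Srebf2 was 8.34, 8.46 and 8.67 in LPS livers and 8.50, 8.60 and 8.80 in saline livers, a change of -0.14 (SE 0.04, adjusted limma p = 0.112). Scap was 9.31, 9.38 and 9.57 in LPS livers and 9.11, 9.31 and 9.42 in saline livers, a change of 0.14 (SE 0.04, adjusted limma p = 0.128), and all 10 LPS livers lay above the saline mean. Tmem97 was 11.40, 11.68 and 11.94 in 10 LPS livers and 11.34, 11.48 and 11.61 in 9 saline livers, 1 value having been blanked, a change of 0.19 (SE 0.05, adjusted limma p = 0.112). These 3 differences are small beside that of Insig2, and each pair of groups overlapped. Abcg5 had medians of 12.65 in LPS and 12.57 in saline livers, and Abcg8 of 11.38 in LPS and 11.35 in saline livers. Hmgcs1 was 13.95, 14.30 and 14.73 in LPS livers and 13.90, 14.54 and 14.90 in saline livers (-0.18, SE 0.11), and medians in LPS and saline livers were 11.51 and 11.45 for Sqle, 8.69 and 8.58 for Idi1, and 10.32 and 10.29 for Insig1. Markers of other kinds moved in the same livers: both neutrophil markers were higher at an unadjusted p under 0.05 (mean level 8.45 to 10.29 in LPS and 8.12 to 8.80 in saline livers), as were 2 of 3 red cell, 2 of 4 sinusoidal endothelial and 1 of 4 Kupffer cell genes. Of 9 clock genes, 5 were higher and 2 lower, and Ciart, Per1 and Usp2 rose by the adjusted test, as did 1 neutrophil, 1 sinusoidal endothelial and 1 Kupffer cell marker. Their part in the Insig2 value was not tested.

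Differences between treatments were tested directly, in 6 pairs of treatments for each tissue and in 4 pairs of tissues. Insig2 was the only gene of the list that passed the adjusted test in any of the 16, in which 0% to 1.29% of probes passed. Its change in Chronic liver exceeded that in LPS liver by 0.94 (SE 0.22, adjusted limma p = 0.0123). Against CI the Chronic change of Insig2 was larger by 0.65 (adjusted limma p = 0.229), and against DID by 0.61 (adjusted limma p = 0.369). Between Chronic and CI, the change was higher in Chronic at an unadjusted p under 0.05 for 4 genes, Insig2, Mvd (0.48), Sc5d (0.31) and Stard4 (0.20), and lower for Abcg5 (-0.26), where 4.1% of all probes were higher and 4.42% lower. None passed the adjusted test, which 0.187% of probes passed, and only 2 of the 16 enzymes were among the 5. The CI change was lower than the DID change at an unadjusted p under 0.05 for 10 genes, all of them enzymes, where 2.67% of all probes were. They ran from Cyp51 (-0.73), Sqle (-0.67), Hmgcs1 (-0.59) and Msmo1 (-0.59) to Sc5d (-0.28), and the smallest adjusted p was 0.768, where 0.0114% of probes passed. Against LPS, 7 genes were lower and 2 higher in CI at that threshold, the 2 being Abcg5 (0.26) and Abcg8 (0.33), where 2.52% of all probes were lower and 2.17% higher. The smallest adjusted p was 0.94, where 0.0764% of probes passed. The Abcg5 change in Chronic less that in DID was -0.36 (adjusted limma p = 0.309), and that in DID less that in LPS was 0.37 (adjusted limma p = 0.283). The lower enzymes of CI were thus not shown to differ from the other treatments by the adjusted test. Starting age and length also differed between treatments, and these tests cannot tell them apart from the treatment.

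In PFC, where cells of the brain make their own cholesterol behind the blood-brain barrier, changes were small. At an unadjusted p under 0.05, 1 of 22 genes was called in Chronic (4.38% of all probes), 2 of 21 in CI (5.21%), 1 of 21 in DID (3.88%) and 2 of 21 in LPS (9.58%), and none passed the adjusted test. The smallest p was that of Stard4 in LPS mice. It was 8.90, 9.03 and 9.10 in LPS and 8.99, 9.21 and 9.35 in saline mice, all 10 LPS mice lying below the saline mean. The change was -0.17 (SE 0.04, a ratio of 0.888, adjusted limma p = 0.0945), where 0.113% of probes passed. In the same PFC samples 2 of 3 markers of meninges and vessels rose by the adjusted test (mean level 10.30 to 10.97 in LPS and 9.81 to 10.44 in saline mice). At an unadjusted p under 0.05, 3 of 4 microglial and 3 of 3 red cell markers were higher, 1 of the microglial ones also by the adjusted test, 4 of 11 clock genes were higher and 1 lower, and 1 of 8 oligodendrocyte markers was lower. Higher at that threshold were also 2 of 4 striatal and 2 of 4 thalamic markers, while the 1 measured choroid plexus marker was lower (-0.38). Their part in the Stard4 value was not tested. Hsd17b7 in the same mice was 10.23, 10.31 and 10.45 in LPS and 10.30, 10.40 and 10.54 in saline mice (-0.09, unadjusted limma p = 0.0231). The other smallest p-values there were those of Cyp51 (0.06) and Tm7sf2 (-0.04).

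In CI PFC, Hsd17b7 was 9.76, 9.97 and 9.98 in ethanol and 9.93, 10.04 and 10.25 in water mice, a change of -0.16 (SE 0.04, adjusted limma p = 0.682). Cyp51 was 8.92, 9.10 and 9.23 in ethanol and 9.01, 9.16 and 9.57 in water mice, also -0.16 (unadjusted limma p = 0.031). Without the 2 water arrays of low correlation, Hsd17b7 alone stayed at that threshold, at -0.14, and Cyp51 was at -0.08. In this set 4 of 4 striatal markers were higher in ethanol mice at an unadjusted p under 0.05 (mean level 9.97 to 11.54 in ethanol and 8.92 to 11.36 in water mice). The mean level of the thalamic list was 8.58 to 8.82 in ethanol and 8.54 to 10.70 in water mice, and their part in the values was not tested. Pmvk (-0.09) and Mvd (-0.07) came next in order of p.

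In Chronic PFC, Nsdhl was 8.48, 8.61 and 8.79 in ethanol and 8.29, 8.50 and 8.67 in water mice, a change of 0.12 (unadjusted limma p = 0.0215), while another Nsdhl probe was at -0.00284. Sqle (0.13), Dhcr7 (0.08) and Srebf2 (-0.07) followed. In DID PFC, Tm7sf2, a sterol reductase near the low end of the measured range, was 8.10, 8.15 and 8.22 in 10 ethanol and 8.04, 8.10 and 8.13 in 9 water mice, a change of 0.06 (unadjusted limma p = 0.00909). Pmvk (0.05), Msmo1 (-0.08) and Lbr (-0.08) followed.

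**Figure D5:**
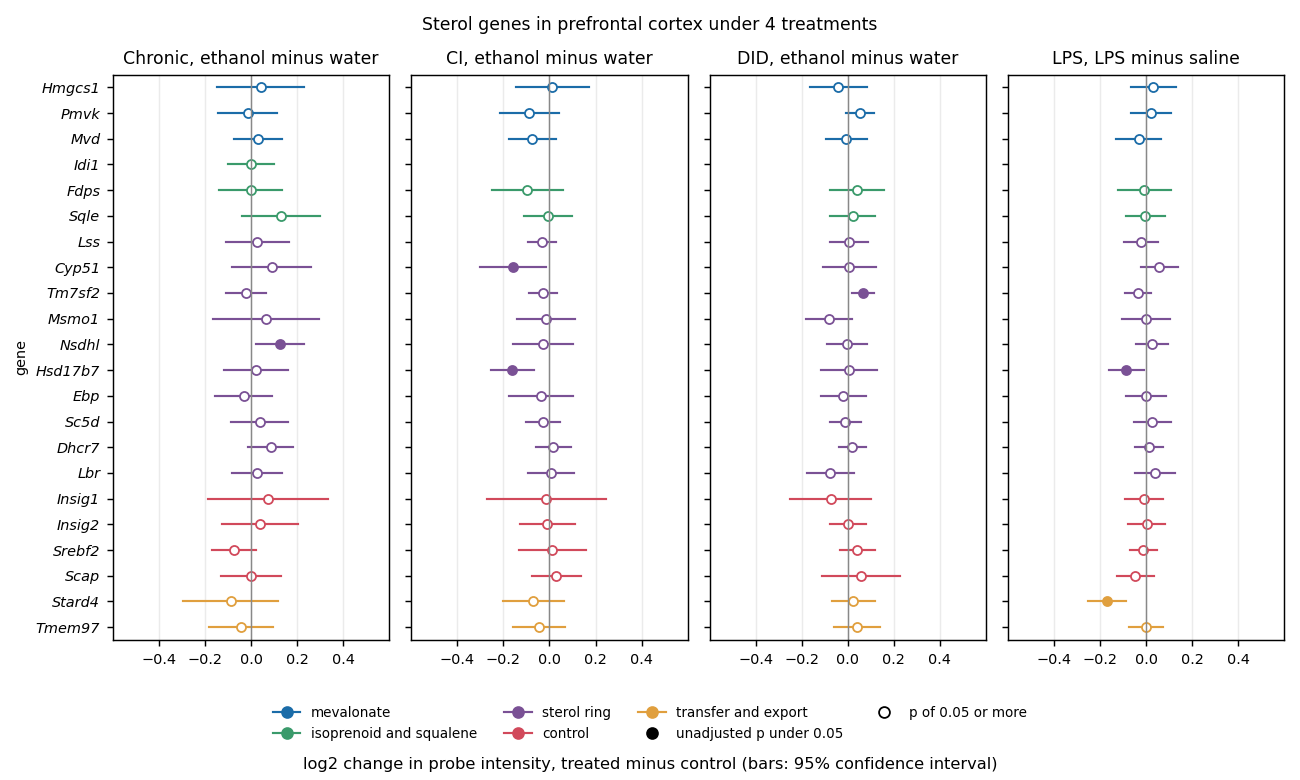
Change in log2 intensity (treated less control, with 95% interval) of the genes measured in PFC for the 4 treatments; filled points have an unadjusted p under 0.05. All changes lie between -0.17 and 0.13, and Stard4 in LPS mice is the furthest from 0.

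Set against PFC of the same treatment, the CI change was lower in liver for 8 genes at an unadjusted p under 0.05, where 3.14% of all probes were, and for none by the adjusted test (smallest adjusted limma p = 0.425), which 0.0124% of probes passed. They were led by Sqle (-0.69), Hmgcs1 (-0.65) and Msmo1 (-0.63). In LPS mice the change in liver less that in PFC was -0.55 for Insig2 and 0.29 for Stard4 (both adjusted limma p = 0.0995), where 0.269% of probes passed. Liver and PFC arrays of a mouse could not be tied to each other and were taken as independent.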

How the data were processed

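Total RNA of PFC and liver was labelled and hybridised to 1-colour Illumina bead arrays by the authors. The deposited log2 intensities were used, which the authors made with lumi, whose version is not given in the sources used here, by variance stabilization and quantile normalization within each of the 8 sets of tissue and treatment. The authors kept probes detected on most arrays of a set and blanked outlying single values by Grubbs' test, which left 0.492% to 0.619% of values blank. A narrower spread follows from such blanking. The table's columns were tied to mice by their titles. The deposited bead signals were not used, since no label ties their columns to a mouse.

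Each set was fitted on all its probes with limma 3.58.1 in R 4.3.3 (treated less control, empirical Bayes), with Benjamini-Hochberg adjustment over all probes of the comparison and a threshold of 0.05. An unadjusted p under 0.05 is the study's threshold. "Rose" and "fell" were kept for adjusted calls. The pooled fit covered probes with values in all 3 drinking tests. A gene with several probes was read from the one with the highest mean in the set. A mean level of a marker or clock list can cover only part of its measured genes. The fits were tested on simulated data. The number of arrays limits the precision.

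Genes given in full were the 4 with the smallest unadjusted p in each comparison, and in liver also Hmgcs1, Sqle, Idi1, Insig1, Srebf2, Abcg5 and Abcg8. Of 48 other sterol genes only counts and the 3 smallest p per comparison are given. The members and lists were chosen with earlier results of these data known. Alternatives were array weights, a trended robust prior, removal of blanked and of dim probes, other probes of a gene, a replicate block, and permutation tests. Chosen after seeing the data were array clusters in DID liver, removal of 2 CI PFC arrays, single arrays of CI liver left out, and single sets left out of the pooled fit. Equal replicate numbers in treated and control mice are not tied by any label. Promoters were read from RefSeq (GRCm38.p6) in Python 3.11.15.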

Additional observations from a re-analysis of the deposited data

Results flagged for a closer look

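Srebf2 in DID water livers had 1 mouse at 8.764, whose nearest neighbour was at 8.534 while the lowest was at 8.287, so that this gap took 0.482 of the range over 10 mice. It was the only group flagged among 106 examined for a single distant value. Chance gives such a value in about 1 in 20 groups of unfiltered values. The authors had already blanked outlying values, so that rate need not hold here. The change of Insig2 in liver was higher in Chronic than in LPS mice by 0.9432 on the log2 scale, by a test of the difference itself (adjusted limma p = 0.0123).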

How the results depend on the processing

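Of 381 values of single genes in the 8 comparisons recomputed under an alternative, 368 kept their direction and side of the threshold, 8 turned sign, 4 newly passed and 1 no longer passed. No gene of the list passed the adjusted test in the 8 main fits, so there was no adjusted call to lose. The tally therefore says little about how firm the unadjusted calls are, whose counts follow. The pooled fit, given apart further on, is not in this tally. In CI liver the number of genes at an unadjusted p under 0.05 was 13 to 19 with each array left out. With array weights that number was 3 in Chronic liver, 2 in Chronic PFC and 1 in CI PFC, and 272 and 48 probes passed the adjusted test in Chronic and CI liver, against 151 and 22 without weights. Without blanked probes 43, 9 and 32 probes passed in Chronic, CI and LPS liver and 7 in LPS PFC, and 0 genes were called in DID PFC. With the replicate block 81, 8, 1 and 35 probes passed in Chronic, CI, DID and LPS liver and 1 in LPS PFC, and 2 genes were called in DID PFC. The trended robust prior gave 40 probes in CI liver and 7 in LPS PFC. Without dim probes 1 probe passed in DID liver, and 0, 0 and 1 genes were called in Chronic, DID and LPS PFC. Without weights 53 probes passed in LPS liver, 2 in DID liver and 13 in LPS PFC. With array clusters as a term, DID liver had 5 genes and 27 probes. Without 2 arrays, CI PFC had 1 gene. The shares of all probes at an unadjusted p under 0.05 are not given for these alternative fits.

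In the pooled liver fit Srebf2 stood at -0.1201 both without blanked probes (adjusted limma p = 0.0637) and with the replicate block (adjusted limma p = 0.132), at -0.1187 without Chronic, -0.1117 without CI and -0.1299 without DID. Abcg8 was at 0.2989 without CI and Abcg5 at 0.2267 without DID, and each of these left 1 gene past the adjusted test. Insig2 passed the adjusted test in Chronic liver with the replicate block (adjusted limma p = 0.045) and in LPS liver with array weights (adjusted limma p = 0.0418) or without dim probes (adjusted limma p = 0.0487). Its Chronic less LPS difference was 1.00 with array weights (adjusted limma p = 0.00291) and 0.77 with another probe (adjusted limma p = 0.0217). Values near 0 turned sign: with array weights Sqle was 0.09913 in Chronic liver, Insig1 -0.007063 in DID liver and Idi1 0.005363 in LPS liver. By other probes Insig1 was -0.01091 and -0.02097 in Chronic, -0.02765 in DID and -0.0789 in LPS liver, and Nsdhl -0.00284 in Chronic PFC. Idi1 in Chronic liver had a permutation p of 0.0622, two-sided. The causes were not tested. No label ties mice with equal numbers. Their mean r was -0.14 to 0.0842 outside CI PFC. In CI PFC it was 0.273 with 9 of 10 pairs over 0.1, against -0.0274 for pairs of unequal numbers. What these CI PFC pairs had in common was not tested. Renewed background correction, normalization and a beadchip term were not run, since the bead signals could not be tied to mice. Dim probes such as Tm7sf2 in PFC lie near the floor of the scale, where a lower level cannot be seen.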

Other observations

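Of 48 other genes of sterol and bile acid handling, 31 were measured in Chronic liver and 29 in each other liver set. In Chronic liver 4 were higher and 5 lower at an unadjusted p under 0.05, where 6.31% of all probes were higher and 5.8% lower. Cyp27a1, which oxidises the cholesterol side chain, averaged 13.59 in ethanol and 13.83 in water livers and fell by 0.24 (SE 0.05, adjusted limma p = 0.0238), with 10 of 10 ethanol livers below the water mean. Cyp7a1, the rate-limiting enzyme of bile acid synthesis, averaged 12.01 in ethanol and 13.03 in water livers, a difference of -1.02 (SE 0.27, adjusted limma p = 0.0662), and Srebf1, the lipogenic relative of Srebf2, was at -0.34 (adjusted limma p = 0.161). In CI liver 1 was higher and 2 lower, a share near that of all probes (5.23% higher and 5.24% lower). Cyp8b1, which sets the kind of bile acid made, averaged 11.62 in ethanol and 12.60 in water livers (-0.98, SE 0.35, adjusted limma p = 0.29), Cyp27a1 was at -0.13 and Fnta, a subunit of farnesyltransferase, at 0.09. In DID liver Erlin2 (0.11) and Srebf1 (0.17) were higher and none was lower, where 2.99% of all probes were higher and 2.2% lower. In LPS liver 4 were higher and none lower, where 6.21% of all probes were higher and 5.38% lower, so that the share called was close to that of all probes. The smallest p-values were those of the fatty acid genes Elovl6 (0.65) and Acly (0.43) and of Npc2 (0.12), which hands cholesterol out of lysosomes, all with adjusted p over the threshold. In PFC none was called in Chronic or DID, Erlin1 was higher in CI (0.17) and Dhdds lower in LPS (-0.09), again at an unadjusted p only, where 5.21% of all probes in CI PFC and 9.58% in LPS PFC had one under 0.05.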
